A study of Mus musculus with 4 samples.

Results

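Expression of 9 genes of the presynaptic terminal and of its neuromodulator receptors was followed through the neurons of the mouse main olfactory epithelium. They were listed by name: Slc17a6, Slc17a7, Syt1, Snap25, Vamp2, Stx1a, Gabbr1, Gabbr2 and Drd2, 9 of the 55511 genes of the merged table of unique molecular identifiers (UMIs, a count of captured RNA molecules). Single cells came from the olfactory epithelium of 4 untreated male C57BL/6 mice aged 8 weeks, with 1 library of the 10x Genomics 3' end chemistry per mouse. Each mouse is 1 replicate, and cells of a mouse are not replicates. The authors' deposited names were used for cell types, for clusters of mature olfactory sensory neurons (OSNs) and for the receptor identity of each neuron. Of the 15859 cells they retained from 21809 barcodes, 284 were immediate neuronal precursors (INP), 866 and 1006 were immature OSNs of an earlier (iOSN1) and a later stage (iOSN2), and 10519 were mature OSNs (mOSN). Of the mature OSNs, the authors placed 9539 in 10 clusters, and 134 of 960 receptor populations held 20 or more neurons, together 4143.

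Each mature OSN sends an axon into a glomerulus of the olfactory bulb and releases glutamate there. Slc17a6 and Slc17a7 encode the vesicular glutamate transporters VGLUT2 and VGLUT1, which load glutamate into synaptic vesicles. Vamp2 on the vesicle, and Snap25 and Stx1a (syntaxin 1A) on the plasma membrane, form the SNARE complex that fuses vesicles, and Syt1 (synaptotagmin 1) is the calcium sensor that triggers fusion. Gabbr1 and Gabbr2 encode the subunits of the GABAB receptor and Drd2 the D2 dopamine receptor, inhibitory receptors on OSN terminals through which GABA and dopamine of the bulb lower glutamate release.

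Depth ranged from 23157467 to 32382702 UMIs per library. The retained cells of the 4 libraries shared 26 barcode sequences. The 3 lists of neuronal markers peaked in the stage that they name: the summed level of Neurog1, Neurod1 and Sox11 was 68.9 UMIs per 10000 in INP, that of Gap43, Gng8 and Dpysl3 was 55.0 in iOSN1, and that of Omp, Adcy3, Cnga2 and Gng13 was 180 in mOSN. In iOSN2, the later stage named immature, the immature list was at 11.2, below its 24.0 in INP, and the mature list already at 138. Hemoglobin RNA (Hba-a1 and Hba-a2) ranged from 0.0593 to 11.8 UMIs per 10000 over the mice in iOSN1, and from 0.0109 to 0.600 in INP. Its part in the values of iOSN1 was not tested, and the 6 members called higher in iOSN1 than in INP (described next) numbered 6 without any 1 of the mice. In all 4 stages and all mice, the summed markers of immune cells, ensheathing glia, sustentacular, horizontal basal and microvillous cells each stayed below 1 UMI per 10000.

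Along the lineage, most of these genes were higher at the steps through the immature stages, Slc17a7 was lower from INP to iOSN1 and Stx1a was lower from iOSN1 on. Levels are UMIs of the gene per 10000 UMIs, from UMIs summed over the cells of a stage in each mouse, and they are compared for 1 gene at a time, never between genes. A step was called higher or lower when the 4 mice of one stage did not overlap the 4 of the other and the means differed at least 1.5-fold. The stages were drawn from clustering the same cells on the same genes, so these are descriptions with no test. From INP to iOSN1, 6 of the 9 members were called higher and 1 lower, where 18.7% of 16388 genes were called higher and 8.85% lower. Slc17a7, the member called lower, had 36 of its 51 UMIs over the 4 stages in INP. It passed the filter of at least 20 UMIs over the stages through the one where it was high, so nothing is read from its call in this count. From iOSN1 to iOSN2, 6 were called higher and 1 lower, beside 10.6% and 17.6% of genes. From iOSN2 to mOSN, 0 members were called higher and 1 lower, beside 6.72% and 9.27% of genes.

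Slc17a6 (chr7:51622006-51671119, plus strand, GRCm38), the VGLUT2 gene, was at 0.447, 0.545, 0.450 and 0.382 UMIs per 10000 in INP of mice 1 to 4. In iOSN1 it was at 0.282, 0.292, 0.351 and 0.410, and the mice of the INP and iOSN1 stages overlapped. In iOSN2 it reached 2.31, 2.19, 2.50 and 2.12, so that every mouse stood above every iOSN1 value, and the means differed 6.83-fold (5.16 to 8.21 within a mouse). Mature OSNs lay slightly higher again, at 2.85 ± 0.159 (SD, n = 4), 1.25-fold the mean of iOSN2, below the 1.5-fold required. The main step of Slc17a6 thus lay between the immature stages, whereas Syt1, Snap25 and the GABAB genes were already higher in iOSN1 than in INP. Without mouse 4, Slc17a6 was called lower in iOSN1 than in INP (0.308 against 0.481 UMIs per 10000), and as a mean over cells it was too (0.299 against 0.505). The gene overlaps Gm45072 on the same strand, and reads in the overlap cannot be told apart.

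Slc17a7 (chr7:45163949-45176142, plus strand), the VGLUT1 gene, was nearly absent from OSNs and was seen in precursors. In INP it gave 12, 5, 16 and 3 UMIs in mice 1 to 4, found in 27 of 284 cells, or 0.184 ± 0.110 UMIs per 10000. Globose basal cells (GBC), the dividing progenitors that give rise to INP, held 14 UMIs in 11 of 202 cells, with 0 in mouse 3. In iOSN1 there were 5 UMIs in 4 of 866 cells, a mean level 24.2-fold lower than in INP. Mature OSNs held 9 UMIs in 9 of 10519 cells, which were spread over 3 of the mice. All 4 mice were lower in iOSN1 than in INP, although the INP level ranged from 0.0546 to 0.277 between mice. Sustentacular cells, which do not transmit, held 1 UMI in 336 cells, and 2 other types, HBC1 of the horizontal basal cells (210 cells) and Mv1 of the microvillous cells (124), held 0. The share of cells with a UMI, 0.0909% in mature OSNs at a median of 4861 UMIs, was below the 0.352% in sustentacular cells at 5587, and is not read as expression.

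The fusion genes did not move as a block. Syt1 (chr10:108497650-109010982, minus strand) was at 0.654, 0.600, 0.657 and 0.655 UMIs per 10000 in INP and at 1.72, 2.02, 2.015 and 1.82 in iOSN1, a 2.95-fold higher mean. In iOSN2 it was at 4.44, 4.00, 4.36 and 4.28, 2.25-fold above iOSN1, and in mOSN at 5.66, 5.63, 5.79 and 5.48. The mice did not overlap at any of the 3 steps, and the last step, 1.32-fold, was below the fold required. Syt1 overlaps the protein-coding gene Gm5136 on the same strand.

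Snap25 (chr2:136713453-136782428, plus strand) was at 0.436, 0.218, 0.208 and 0.437 UMIs per 10000 in INP and at 1.70, 1.65, 1.89 and 1.48 in iOSN1, a 5.18-fold higher mean. It was at 3.41, 3.25, 3.44 and 3.42 in iOSN2 and at 4.39, 4.23, 4.28 and 4.30 in mOSN. As for Syt1, every mouse of a later stage was above every mouse of the stage before it, with 2.01-fold between the immature stages and 1.27-fold at the last step. A processed pseudogene, Gm14053, lies within Snap25 on the opposite strand.

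Vamp2 (chr11:69088490-69092384, plus strand) had a flatter course, from 1.34 ± 0.200 UMIs per 10000 in INP to 2.32 ± 0.101 in iOSN1 (1.73-fold) and 3.22 ± 0.158 in iOSN2 (1.39-fold). In mOSN it was at 3.02, 3.14, 3.25 and 3.18, overlapping the range of iOSN2. Vamp2 was therefore the only fusion gene among the members with no difference between iOSN2 and mOSN that separated the mice.

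Stx1a (chr5:135023482-135051100, plus strand) was highest in immature neurons. It was at 1.18, 1.15, 1.61 and 1.35 UMIs per 10000 in INP and at 1.66, 1.56, 1.66 and 1.65 in iOSN1, stages whose mice overlapped. It was lower in iOSN2, at 0.861, 0.811, 0.715 and 0.817 (2.04-fold), and lower again in mOSN, at 0.523, 0.447, 0.539 and 0.469 (1.62-fold). Both lower steps were found in 4 of 4 mice without overlap, and INP stood at 267% of the mOSN level. Its SNARE partners Snap25 and Vamp2 were at 7.55% and 42.6% of their own mOSN levels in INP.

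The receptor genes were higher at both steps through the immature stages, as Syt1 and Snap25 were. Gabbr1 (chr17:37045966-37075067, plus strand) was at 0.316, 0.327, 0.156 and 0.236 UMIs per 10000 in INP, at 0.637, 0.776, 0.756 and 0.542 in iOSN1 (2.62-fold), at 1.27, 1.49, 1.46 and 1.39 in iOSN2 (2.07-fold) and at 1.63, 1.97, 1.66 and 1.76 in mOSN (1.25-fold). The mice were separate at all 3 steps. The call from INP to iOSN1 was lost when each cell was thinned to 3000 UMIs, with a fold of 2.50.

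Gabbr2 (chr4:46662305-46991873, minus strand), whose product is needed to bring the GABAB receptor to the membrane, was at 0, 0, 0.0346 and 0.0546 UMIs per 10000 in INP, a total of 5 UMIs. In iOSN1 it was at 0.356, 0.365, 0.338 and 0.417, so every mouse stood above the INP values, and the fold of 16.5 rests on those 5 UMIs. It was at 0.783 ± 0.0209 in iOSN2, 2.12-fold above iOSN1, and at 0.847 ± 0.0479 in mOSN, where the mice overlapped iOSN2.

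Drd2 (chr9:49340627-49408177, plus strand) was at 0.0109, 0.109, 0 and 0.0364 UMIs per 10000 in INP, again 5 UMIs in all, and at 0.143, 0.159, 0.212 and 0.202 in iOSN1. That step of 4.58-fold was no longer called on thinned cells (1.95-fold) or on cells with at least 2000 detected genes (3.44-fold). The larger step came between the immature stages: iOSN2 was at 0.779, 0.960, 0.938 and 0.835, and the means differed 4.91-fold (4.15 to 6.03 within a mouse). Mature OSNs were at 0.808, 0.984, 0.949 and 1.02, overlapping iOSN2. Relative to their mOSN levels, iOSN1 held 43.5% of Gabbr2 and 39.1% of Snap25 but 19% of Drd2 and 11.7% of Slc17a6. Of the markers of mature OSNs it held 24.5% of Gng13, 21.5% of Cnga2, 8.01% of Omp and 6.32% of Adcy3.

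**Figure D1:**
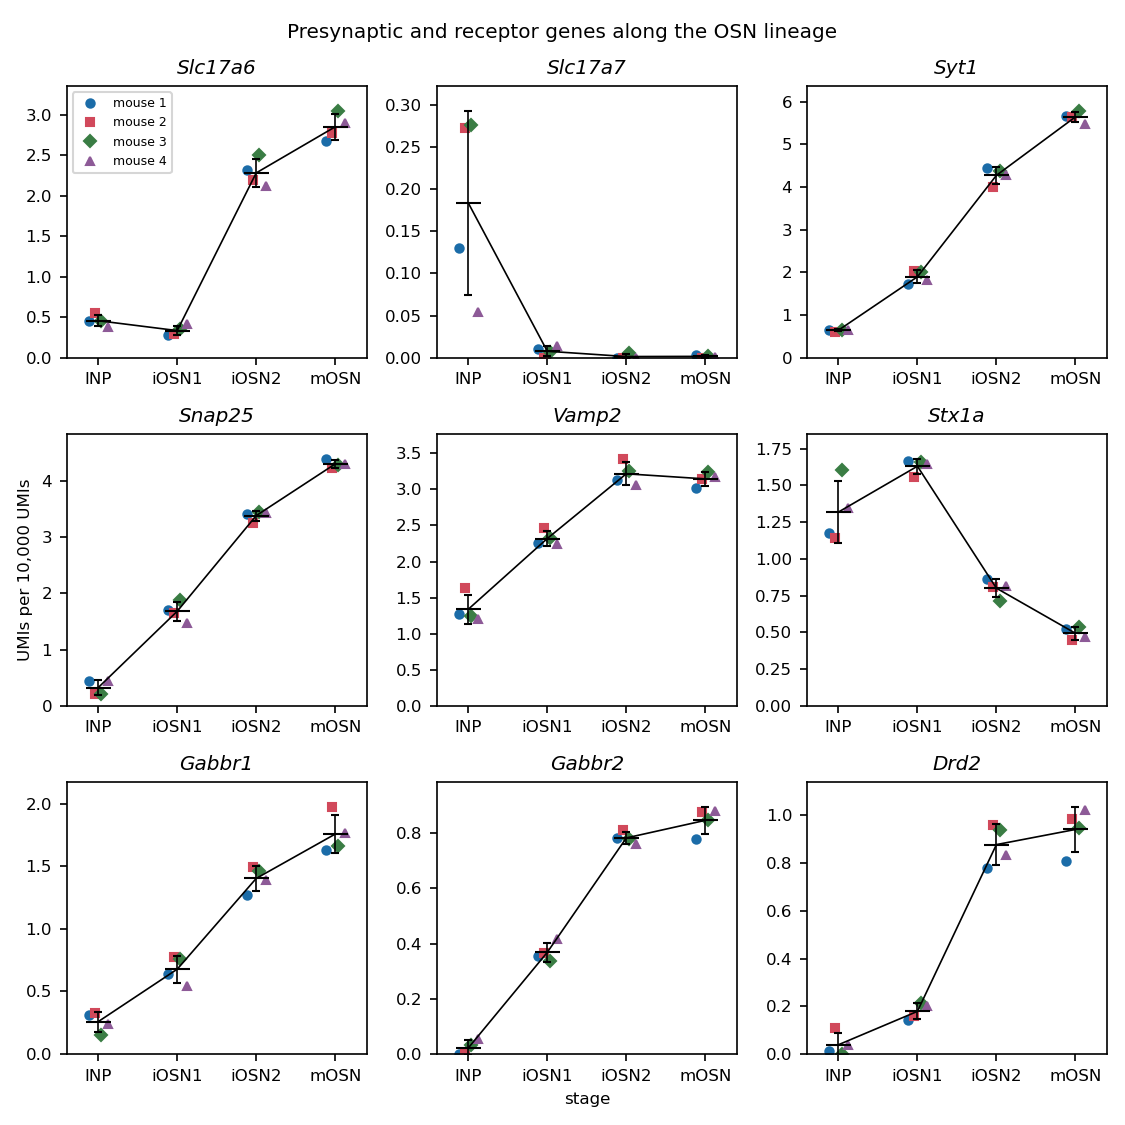
Level of each of the 9 genes, in UMIs per 10000 UMIs, in INP, iOSN1, iOSN2 and mOSN. Points are the 4 mice, and the line with bars is their mean and SD. Syt1, Snap25, Vamp2, Gabbr1, Gabbr2 and Drd2 climb through the immature stages, Slc17a6 steps up at iOSN2 (2.28 against 0.334 in iOSN1), Slc17a7 is seen in INP at 0.184, and Stx1a is highest in iOSN1 at 1.63 and at 0.494 in mOSN.

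Short promoter stretches of Stx1a, a member that was lower in mature neurons, and of Drd2, a member that was higher there, are shown because both hold the motif CCCNNGGG, the core of the sequence bound by Ebf factors of the OSN lineage. The motif reads the same on both strands. It was searched in the 250 bases before to the 50 bases after each start site in a RefSeq table (GRCm38.p6), in which 7 of the 9 members had entries (9 promoters in all), and it was found for these 2 of the 7 members. Of all 32851 promoters in the table, 13.7% held it. Capitals mark the motif, which begins 123 bases before the start site of Stx1a (chr5:135023348-135023377, plus strand) and 98 bases before that of Drd2 (chr9:49340294-49340323, plus strand). That RefSeq start site of Drd2 lies before the gene start given above (chr9:49340627). Counted from the latter, the motif lies outside the window searched.
Stx1a: aggaaccaggtCCCGAGGGctgggtttgta
Drd2: gtggggcctgtCCCAGGGGcggggttcccg
The match says only that these letters are there. The genes that hold it went in opposite directions between iOSN1 and mOSN.

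In horizontal basal, sustentacular and microvillous cells, Vamp2 and Gabbr1 had higher mean shares of their mOSN levels than Syt1, Snap25, Slc17a6, Gabbr2 and Drd2. Sustentacular cells, the supporting cells of the epithelium, held 3.85% of the mOSN level of Syt1, 4.53% of Snap25, 5.58% of Slc17a6, 5.38% of Gabbr2 and 6.65% of Drd2. The OSN marker Omp, which they should lack, was at 4.91%. In the microvillous cells named Mv2 these shares were lower, at 1.5% for Syt1, 1.43% for Snap25 and 0.491% for Slc17a6, beside 1.14% for Omp. Those of Vamp2 and Gabbr1 were higher: Mv2 cells held 54.3% of the mOSN level of Vamp2 (1.57, 1.89, 1.74 and 1.63 UMIs per 10000 in mice 1 to 4) and 25.0% of that of Gabbr1, and sustentacular cells 21.0% and 12.5%. Stx1a, whose mOSN level is itself low, was at 9.53% in Mv2 (2.79% to 18.6% over the mice, 50 UMIs), at 8.52% in sustentacular cells (3.39% to 14.1%, 9 UMIs), where its mice overlapped those of Drd2 (1.93% to 12.9%), at 19.6% in Mv1 (0% to 46.2%, 5 UMIs) and at 27.0% in HBC1 (4.85% to 70.3% over the mice, 11 UMIs in all), where Gabbr1 was at 25.9% and Omp at 4.45%. In GBC, the progenitors of the OSN lineage, Stx1a was at 27.7%, Vamp2 at 14.2% and Gabbr1 at 8.2%, beside 1.64% for Omp.

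Shares of cells with a UMI were also compared. On cells thinned to 3000 UMIs, 79.5% of mOSN and 3.33% of sustentacular cells had a Syt1 UMI, and the unthinned shares were 88.6% and 4.93%. For Drd2 the thinned shares were 24.6% and 1.40% (unthinned 37.4% and 2.49%), and for Gabbr2 21.6% and 0.623% (unthinned 33.9% and 1.96%). Vamp2 had a UMI in 61.1% of mOSN, 40.5% of Mv2 and 15.4% of sustentacular cells after thinning, and in 77.6%, 56.8% and 29.9% before. Gabbr1 had one in 40.8%, 12.8% and 7.84% after thinning, and in 57.6%, 20.2% and 11% before. Stx1a had one in 13.9%, 1.18% and 1.60% after thinning, and in 22.9%, 2.25% and 2.41% before. Median depth was 4861 UMIs in mOSN, 5081 in Mv2 and 5587 in sustentacular cells, and 1572 mOSN, 245 Mv2 and 34 sustentacular cells were too shallow to be thinned.

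**Figure D2:**
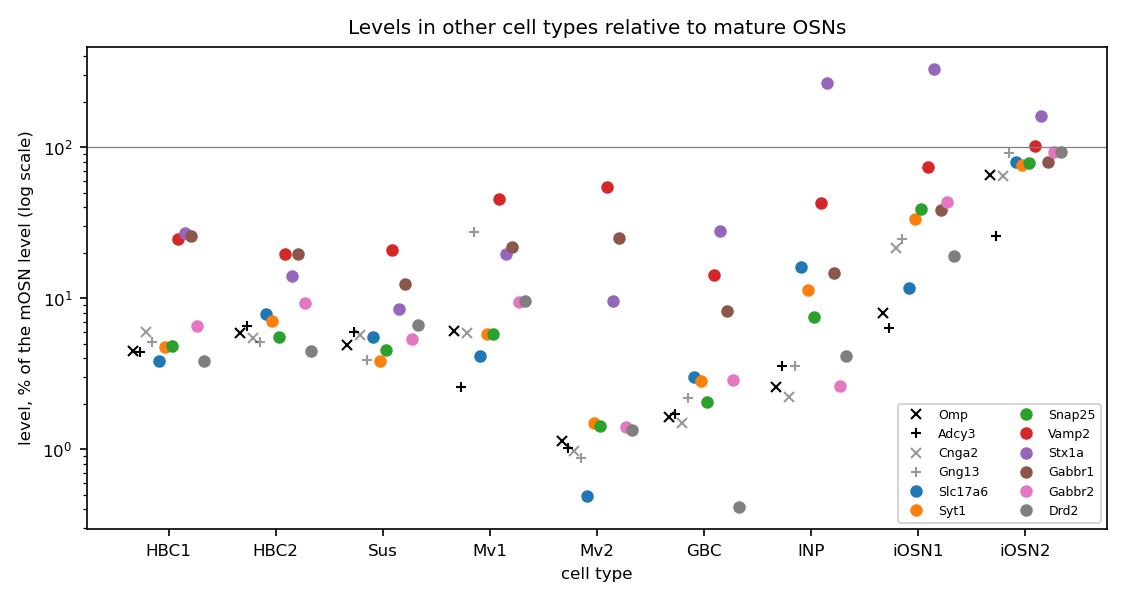
Level of 8 members (circles) and of the 4 OSN markers Omp, Adcy3, Cnga2 and Gng13 (crosses) in 9 cell types as a percentage of the mOSN level, on a log scale; HBC, Sus and Mv are horizontal basal, sustentacular and microvillous cells, and the line marks 100%. Syt1, Snap25, Slc17a6, Gabbr2 and Drd2 lie near Omp, Adcy3 and Cnga2 in most non-neuronal types, Gng13 is at 27.4% in Mv1 cells, and Vamp2 and Gabbr1 lie above Omp, at 54.3% and 25.0% in Mv2 cells.

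The wider synaptic machinery was described from 6 lists of genes that include the members. Over all genes, 18.7%, 10.6% and 6.72% were called higher at the 3 steps and 8.85%, 17.6% and 9.27% lower, and the median folds were 1.15, 0.867 and 0.990. Of 26 vesicle fusion genes with enough UMIs, 12 were called higher and 1 lower from INP to iOSN1 (median fold 1.58), 8 higher and 4 lower from iOSN1 to iOSN2 (1.08), and 2 higher and 3 lower from iOSN2 to mOSN (0.998). Of 24 genes of synaptic vesicle proteins and recycling, 14, 8 and 3 were higher and 2, 2 and 3 lower at those steps, with median folds of 2.59, 1.42 and 1.00. Among the former, Syt4 was 3.34-fold higher in iOSN1 than in INP, and Syt2 was nearly lost there, from 0.201 to 0.00166 UMIs per 10000. Syt2 had 48 UMIs over the 4 stages and entered these counts mainly through INP, where it was high, so nothing is read from its being counted as lower. Among the latter, Syngr1, a synaptogyrin of the vesicle membrane, was 1.77-fold, 3.21-fold and 2.2-fold higher at the successive steps, while Rab3c was 2.65-fold higher in iOSN1 and then lower, at 0.784 in iOSN1, 0.164 in iOSN2 and 0.0374 in mOSN.

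Of the genes of the active zone, where vesicles dock, and of presynaptic calcium channels, 25 had enough UMIs. From INP to iOSN1, 12 were higher and 3 lower (median fold 1.68, against 1.15 over all genes, of which 18.7% were higher and 8.85% lower). From iOSN1 to iOSN2, 5 were higher and 6 lower (1.14 against 0.867, with 10.6% and 17.6% of all genes), and from iOSN2 to mOSN 0 and 4 (0.934 against 0.990, with 6.72% and 9.27%). Unc13c, a vesicle priming factor, was near 0 in INP, at 0.0218 ± 0.0267 UMIs per 10000, and at 0.332 ± 0.0569 in iOSN1, 1.11 ± 0.176 in iOSN2 and 0.808 ± 0.0480 in mOSN.

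Of 17 genes of transmitter identity 5 had enough UMIs, and Slc17a6 was the only one of these called higher at any step. Slc17a8, the VGLUT3 gene, had 2 UMIs over the 4 stages, and Slc32a1 and Gad1, of GABA loading and synthesis, Th, of dopamine synthesis, Slc18a3, of acetylcholine loading, and Tph2, of serotonin synthesis, had 0. Gad2, a GABA-synthesising enzyme, was like Slc17a7 in being highest early: 0.544 UMIs per 10000 in GBC, 0.279 in INP, 0.0842 in iOSN1 and 0.00246 in iOSN2. Of the 5 genes, 0, 1 and 0 were called higher and 2, 1 and 0 lower at the 3 steps, with median folds of 0.732, 0.709 and 0.925. Slc17a7, counted as lower at the first step, passed the filter through INP, as said above.

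Of 17 partners and effectors of the GABAB and D2 receptors, members included, 8, 5 and 0 were called higher and 5, 4 and 4 lower at the 3 steps, with median folds of 2.59, 0.831 and 0.850. Over all genes the medians were 1.15, 0.867 and 0.990, with 18.7%, 10.6% and 6.72% called higher and 8.85%, 17.6% and 9.27% lower. Gnb1, a G protein beta subunit, was 3.83-fold higher in iOSN1 than in INP, whereas the related Gnb2 was at 3.005, 0.505, 0.0503 and 0.0137 UMIs per 10000 along the stages. Kctd16, an auxiliary subunit of the GABAB receptor, was 3.93-fold and then 1.61-fold higher at the first steps. Of 39 other neuromodulator receptor genes only 7 had enough UMIs, with 1, 0 and 0 called higher and 1, 2 and 1 lower and median folds of 0.444, 0.479 and 0.806. Drd1, Drd3 and Drd5 had 0 UMIs over the 4 stages and Drd4 had 4, so Drd2 was the dopamine receptor gene seen in these neurons. The cannabinoid receptor gene Cnr1 was at 0.0554, 0.269, 0.0973 and 0.0719 UMIs per 10000 along the stages.

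Within mature OSNs, Snap25, Slc17a6 and Drd2 had the largest folds between their highest and lowest clusters, over all 4 mice. The names of the authors' 10 clusters give a marker gene and a dorsal (D.) or ventral (V.) position. The clusters were drawn on these genes too, so the values are descriptions. Snap25 was at 5.39, 5.37, 5.35 and 5.21 UMIs per 10000 in the Dlg2+ D. cluster and at 2.42, 2.92, 2.75 and 2.30 in the Cd55+ V. cluster, 2.05-fold apart. Slc17a6 was at 3.37, 3.21, 3.73 and 3.498 in Dlg2+ D. and at 1.66, 2.02, 2.15 and 1.83 in Calb2+ V., 1.80-fold apart. Drd2 was at 0.928, 1.14, 1.14 and 1.12 in the plain Ventral cluster and at 0.695, 0.727, 0.326 and 0.703 in Cd55+ D., 1.76-fold apart. The lowest and highest clusters were separate in 4 of 4 mice for these 3 genes. Of the next clusters in the order, Dlg2+ V. held 3.39 ± 0.0991 of Slc17a6, within the range of Dlg2+ D., and Calb2+ V. held 1.03 ± 0.148 of Drd2, overlapping the Ventral cluster. At the low end of Drd2, Dlg2+ D. was at 0.617 ± 0.0615, level with Cd55+ D. (0.613 ± 0.192), and without mouse 3 it was the lowest cluster, at 0.607 against 0.708 in Cd55+ D. For Snap25 the next cluster, Dlg2+ V., was lower in every mouse than any mouse of Dlg2+ D., at 5.18, 4.43, 4.75 and 4.85.

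The other members had smaller folds over all 4 mice, but the place of Drd2 above Stx1a was not firm. Between the clusters of all mice, with 1 mouse left out, the log2 fold ran from 0.583 to 0.95 for Drd2. For Stx1a it ran from 0.49 to 0.818. Without mouse 3, the highest and lowest clusters of the remaining mice were 1.77-fold apart for Drd2 and 1.76-fold for Stx1a. Stx1a (1.60-fold), Gabbr1 (1.54-fold) and Gabbr2 (1.53-fold) had extreme clusters that did not overlap, so that 6 of 8 members were at least 1.5-fold apart without overlap. Of all 14607 genes with at least 20 UMIs in the clusters, 35.6% were too, each between its own highest and lowest cluster, and of the 6313 with at least 1000 UMIs 38.1%. The clusters were chosen by these values, so nothing is read from the count. Syt1 (1.24-fold) and Vamp2 (1.19-fold) had extremes that overlapped. Between these same clusters, the members at least 1.5-fold apart numbered 4 to 6 when 1 mouse was left out, and 4 on thinned cells; between the highest and lowest clusters of the remaining mice, they numbered 5 to 6. Summed over the dorsal and the ventral clusters, Syt1 was higher dorsally, at 6.09, 6.10, 6.53 and 6.03 UMIs per 10000 against 5.39, 5.48, 5.45 and 5.30. Drd2 was lower dorsally, at 0.627, 0.748, 0.768 and 0.801 against 0.895, 1.05, 1.03 and 1.08, and neither gene's dorsal mice overlapped the ventral mice. The share of all genes that separate in this way was not counted, and the clusters were drawn on these genes. Nothing is therefore read from the separation. Slc17a6 (2.87 ± 0.201 and 2.82 ± 0.139) and Snap25 (4.26 ± 0.164 and 4.31 ± 0.0595) overlapped between the sides.

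**Figure D3:**
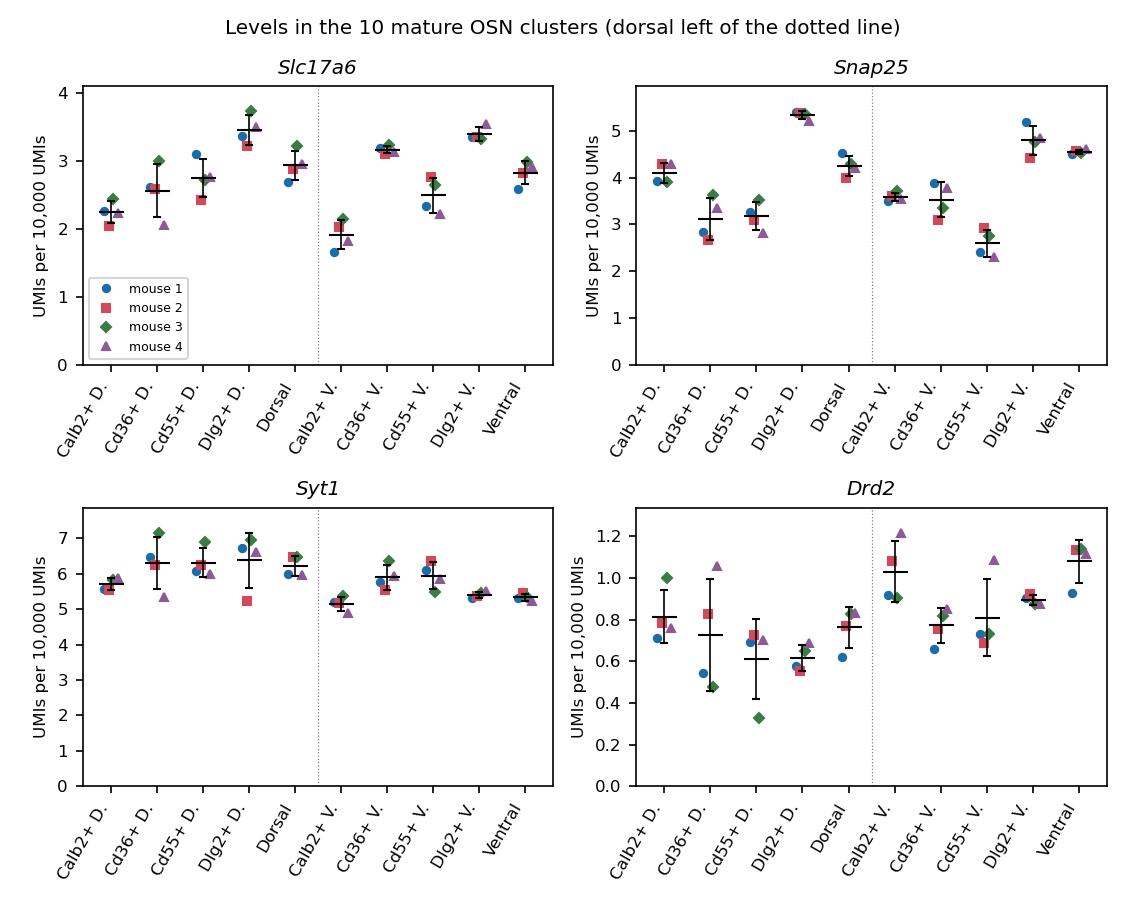
Level of Slc17a6, Snap25, Syt1 and Drd2, in UMIs per 10000 UMIs, in the 10 clusters of mature OSNs, dorsal clusters on the left and ventral ones on the right of the dotted line. Points are mice, bars the mean and SD. Snap25 spans 2.60 in Cd55+ V. to 5.33 in Dlg2+ D., and Syt1 is nearly level, from 5.16 to 6.38.

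Each mature OSN expresses 1 olfactory receptor gene, and all neurons that share a receptor make up a population with common glomeruli. Whether presynaptic genes differ between such populations can be tested, because the receptor that defines a population is not a member. UMIs were summed per mouse and population for 134 populations (499 sums of at least 3 neurons) and tested with edgeR with the mouse as a block. Of 5831 genes tested, 28.8% differed among populations at an adjusted p under 0.05. Among the members, 8 passed the filter and 3 differed: Snap25 (F = 3.36, adjusted p = 3.44e-23), Slc17a6 (F = 2.38, adjusted p = 9.87e-12) and Drd2 (F = 1.81, adjusted p = 7.28e-06). A share of 3 in 8 is near the background, so the count itself says little about presynaptic genes. Snap25 and Slc17a6 were called under 13 of 13 alternatives, and Drd2 under 12, with an adjusted p of 0.220 for neurons with exactly 1 detected receptor.

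Snap25 spanned the populations from 1.97 to 7.63 UMIs per 10000, with a median of 4.25 and 10th and 90th percentiles of 3.03 and 5.82. The population of Olfr166 was highest, at 7.66, 5.39, 7.99 and 9.50 in mice 1 to 4 (39 neurons), followed by those of Olfr15 (7.09 ± 3.43) and Olfr722 (6.998 ± 1.16). Those of Olfr354 (2.32, 1.52, 2.05 and 2.01, 29 neurons), Olfr1440 (2.13 ± 0.704) and Olfr731 (2.26 ± 0.395) were lowest. No mouse of the lowest population came near a mouse of the highest, but both were picked by these values, so nothing is read from the gap. The population means of 1 mouse correlated with those of another with a mean r of 0.358 (0.276 to 0.450 over 6 pairs of mice), a description over populations that share libraries within a mouse.

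The extremes of Snap25 did not follow the clusters alone. Most neurons of Olfr166, Olfr15 and Olfr722 and also those of Olfr731 lay in the plain Ventral cluster (93.6% for Olfr731), while 100% of Olfr354 neurons and 92.6% of Olfr1440 neurons lay in Cd55+ V. Over the 76 populations whose main cluster was Ventral, Snap25 ranged from 2.26 to 7.63.

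Slc17a6 was highest in the populations of Olfr418 (6.36 ± 3.13, n = 3 mice), Olfr1564 (2.84, 6.08, 5.41 and 6.03 in mice 1 to 4) and Olfr365 (4.53 ± 2.06), and lowest in those of Olfr1254 (1.28 ± 0.593, n = 2 mice), Olfr1039 (1.30 ± 1.14, n = 3 mice) and Olfr728 (0.880, 1.71, 1.43 and 1.70, 83 neurons). Its 10th and 90th percentiles were 1.93 and 3.75. The mean r between mice was 0.177 (0.0479 to 0.374 over the pairs). The mice of Olfr1564 and Olfr728 did not overlap. Both were picked by these values from the ends of the order, so nothing is read from that. Of Olfr728 neurons 98.8% lay in Calb2+ V., the cluster with the lowest Slc17a6, whereas 100% of Olfr1254 neurons lay in the plain Ventral cluster and 100% of Olfr1039 neurons in Calb2+ D.

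Drd2 had 13 UMIs in the median population, so single populations are known coarsely, and the mean r between mice was 0.155 (0.0477 to 0.235). It was highest in Olfr1364 (1.80, 2.70, 1.87 and 1.59 UMIs per 10000, 39 UMIs), Olfr31 (1.75 ± 1.04) and Olfr1228 (1.59 ± 0.415), all mostly in the Ventral cluster, and lowest in Olfr592 (0.170 ± 0.147, 3 UMIs in 23 neurons), Olfr1420 (0.267 ± 0.297) and Olfr1271 (0.294 ± 0.346).

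**Figure D4:**
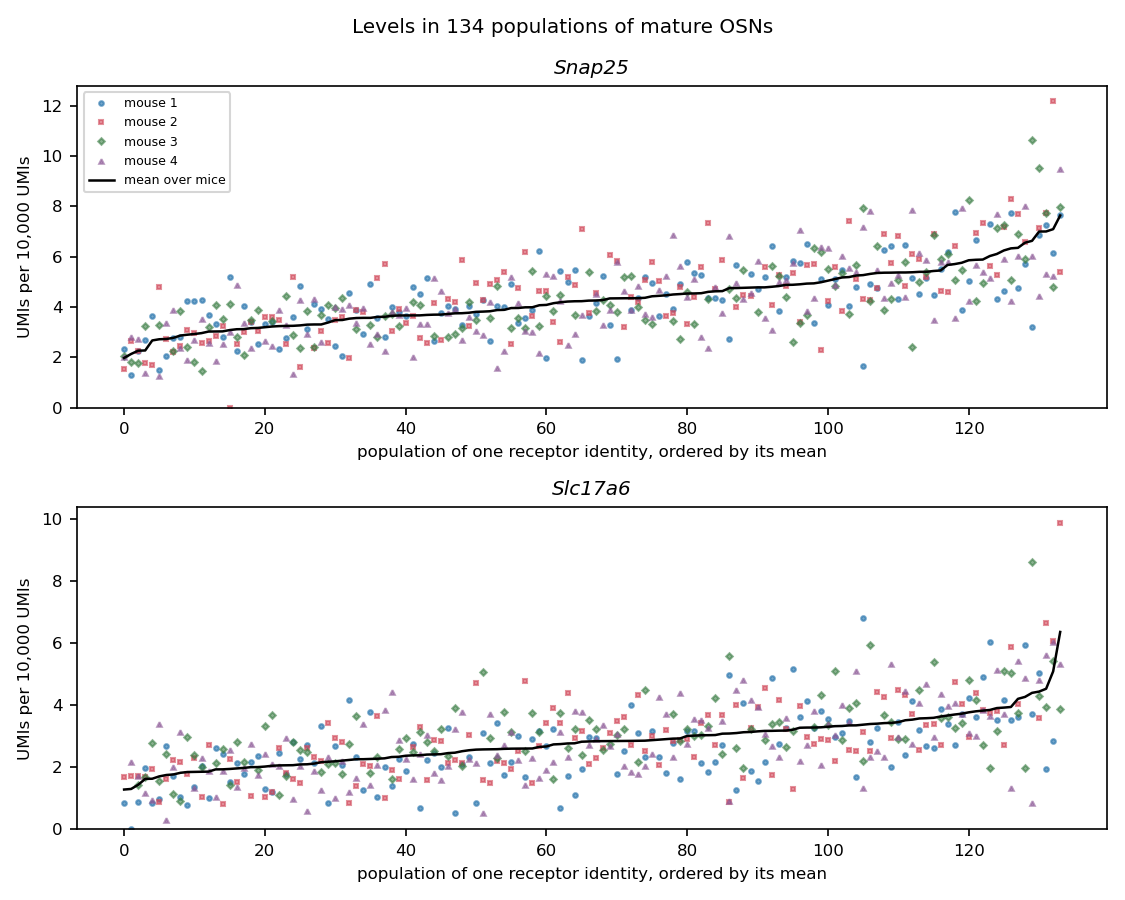
Level of Snap25 and Slc17a6, in UMIs per 10000 UMIs, in the 134 populations of mature OSNs, each ordered along the horizontal axis by its mean. Points are mice with at least 3 neurons of the population and the black line is the mean over mice. The means run from 1.97 to 7.63 for Snap25 and from 1.28 to 6.36 for Slc17a6, and the points of single mice scatter widely around them.

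The remaining members did not pass the test among populations. Syt1, the calcium sensor, had an adjusted p of 0.130 and was called under 4 of 13 alternatives (adjusted p 0.00186 to 0.522 over all of them). Gabbr2 had an adjusted p of 0.173 and was called under 1 of 13 alternatives (0.0329 to 0.866 over all of them). Gabbr1 had an adjusted p of 0.262, Vamp2 0.477 and Stx1a 0.681. Their population means still varied, from 4.45 to 6.62 for Syt1 and 2.49 to 3.76 for Vamp2 between the 10th and 90th percentiles, and the mean r between mice was 0.130 for Syt1 and -0.0124 for Vamp2. Stx1a had 7 UMIs in the median population. Slc17a7 had a UMI in 2 of the 134 populations and did not pass the filter on low counts.

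Over the 134 population means, the largest r between members was 0.340, for Snap25 and Drd2. An r with Vamp2 or Stx1a is not read, because their own means did not correlate between mice (mean r -0.0124 and -0.00335). An r with Gabbr1 or Gabbr2 is not read either. Their means hardly correlated between mice (mean r 0.0596 and 0.0754, lowest -0.096 and -0.0256). Snap25 and Drd2 both moved with Omp (r = 0.465 and 0.549), and none of the 8 members had an r above 0 with the median UMIs per neuron (-0.272 to -0.0226). These are descriptions over populations that share mice, libraries and depth, and the part of depth or maturity was not tested.

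Within the plain Ventral cluster alone (60 populations, 227 sums), 15.8% of 5959 genes differed. Of the 8 members tested, 2 did: Snap25 (F = 3.52, adjusted p = 7.50e-13), called under 13 of 13 alternatives, and Slc17a6 (F = 1.61, adjusted p = 0.0295), called under 5 of 13 (0.00821 to 0.473). Snap25 was at 7.51 ± 2.00 (n = 3 mice) in Olfr166 neurons of this cluster and at 2.29 ± 0.350 (n = 4) in Olfr731 neurons. The Slc17a6 call was lost without mouse 2 (adjusted p = 0.226), without mouse 3 (0.0719), without mouse 4 (0.336) and with no replicate block (0.0862). Drd2 had an adjusted p of 0.123 there.

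In the 6 lists, some genes had larger F than any member among populations. Of all genes, 28.8% differed there and 15.8% within the Ventral cluster. Of the vesicle proteins and recycling genes, 8 of 14 tested differed (median F 1.44, against 1.14 over all genes), and Rab3b (F = 5.15, adjusted p = 7.82e-45) ran from 0.738 to 2.72 UMIs per 10000 between the 10th and 90th percentiles and Syngr1 from 0.233 to 1.76. Of vesicle fusion genes 8 of 20 differed (median F 1.26), with Syt4 from 0.466 to 1.97 (F = 4.20). Of active zone genes 6 of 14 did (1.25), with Unc13c from 0.211 to 1.31 (F = 2.89, below that of Snap25). Of transmitter identity genes 1 of 2 differed (1.71), of GABAB and D2 partners 4 of 7 (1.41), and no other neuromodulator receptor gene passed the filter. Within the Ventral cluster the counts were 5 of 15, 6 of 20, 4 of 15, 1 of 2 and 2 of 7 in the same order, and Syt4 (F = 4.43) and Rab3b (F = 4.35) differed there too.

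Most OSNs express odorant receptors of class I, whose genes lie in 1 genomic run, or of class II, here the other Olfr genes. Neurons of any other identity were left out. The class was set by position: 156 receptor genes at chr7:102476579-105369355 (GRCm38) were class I. Sums per mouse of 1071 class I and 8641 class II neurons were compared with edgeR with the mouse as a block, and of 11835 genes 9.71% were higher and 8.89% lower in class I neurons. Of 8 members tested, 2 were higher and 1 lower.

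In class I neurons Syt1 had levels of 6.19, 6.20, 6.70 and 5.85 UMIs per 10000, against 5.53, 5.58, 5.65 and 5.48 for class II. The groups did not overlap, and the log2 difference was 0.23 (SE 0.0341, 95% interval 0.16 to 0.30, adjusted p = 3.17e-09). The log2 differences here and below are edgeR estimates after TMM scaling, and not ratios of the printed levels. Drd2 had levels of 0.610, 0.684, 0.667 and 0.840 against 0.849, 1.01, 0.994 and 1.03, lower in 4 of 4 mice, with a log2 difference of -0.42 (SE 0.0771, -0.57 to -0.27, adjusted p = 2.21e-06). Both were called under 10 of 10 alternatives. Gabbr2, at 0.916 ± 0.0445 against 0.834 ± 0.0539, was higher by 0.20 (SE 0.0723, adjusted p = 0.0325), but the call held under only 2 of 10 alternatives and was lost without each of the 4 mice (adjusted p 0.0619 to 0.194).

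The other members were not shown to differ. Snap25 had a log2 difference of -0.0058 (-0.0816 to 0.0701), Slc17a6 of 0.088 (0.0014 to 0.17, adjusted p = 0.164), Vamp2 of 0.061 (-0.022 to 0.14), Gabbr1 of 0.0074 (-0.10 to 0.12) and Stx1a of -0.12 (-0.31 to 0.078). Differences of more than 0.2 on the log2 scale are outside these intervals for all but Stx1a. The intervals rest mostly on a spread shared over genes, so they do not exclude such differences on each gene's own spread between the mice. They are on the TMM scale, on which the median of all tested genes was -0.0015.

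Class I neurons lie mostly in dorsal clusters, so the classes were also compared within those (967 class I and 1722 class II neurons). There 3.23% of 9499 genes were higher and 2.51% lower in class I, and 0 of 8 members passed, 0 at an unadjusted p under 0.05 and 0 with DESeq2. Syt1 had levels of 6.04, 6.13, 6.70 and 5.94 against 6.09, 6.15, 6.39 and 6.07, a log2 difference of 0.046 (-0.027 to 0.12, adjusted p = 0.594). Drd2 was at 0.629, 0.680, 0.622 and 0.793 against 0.635, 0.804, 0.876 and 0.807, lower in 4 of 4 mice, most in mouse 3. Its log2 difference was -0.15 (-0.35 to 0.045, adjusted p = 0.485), and 0.0073 for neurons with exactly 1 detected receptor. Whether the difference between classes itself changed from all neurons to those of dorsal clusters was not tested.

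The lists were compared in the same fits. Over all neurons with a class, 9.71% of all genes were higher and 8.89% lower in class I, and 3.23% and 2.51% in dorsal clusters. Among all neurons with a class, 4 vesicle fusion genes were higher and 1 lower in class I of 25 tested (median log2 difference 0.026). For vesicle proteins the counts were 3 and 4 of 21 (0.0068), and for active zone genes 1 and 2 of 20 (0.036). They were 0 of 2 for transmitter identity genes (0.10), 4 and 1 of 12 for GABAB and D2 partners (0.23) and 0 and 1 of 2 for other receptors (-2.79). Gng3, a G protein gamma subunit, averaged 0.328 ± 0.0941 UMIs per 10000 for class I against 0.0754 ± 0.01995 for class II (log2 difference 2.17, SE 0.158, adjusted p = 1.49e-30). Cnr1 averaged 0.00228 UMIs per 10000 for class I, from 1 UMI, against 0.0814 ± 0.0207 for class II (adjusted p = 3.96e-13), and the calcium channel gene Cacna1a 0.0220 ± 0.00887 against 0.111 ± 0.0118. Neither Cnr1 nor Cacna1a was tested within dorsal clusters, so class and position cannot be told apart for them. Over the 134 populations, Cnr1 had a median of 0 and a 90th percentile of 0.254 UMIs per 10000. Within dorsal clusters the counts were 2 and 0 of 23, 1 and 0 of 18, 0 and 2 of 19, 0 of 2, 2 and 0 of 11 and 0 of 1 (medians -0.038, -0.11, 0.0075, -0.011, 0.064 and -0.29), with Gng3 higher in class I by 1.67 (SE 0.190, adjusted p = 1.86e-09).

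**Figure D5:**
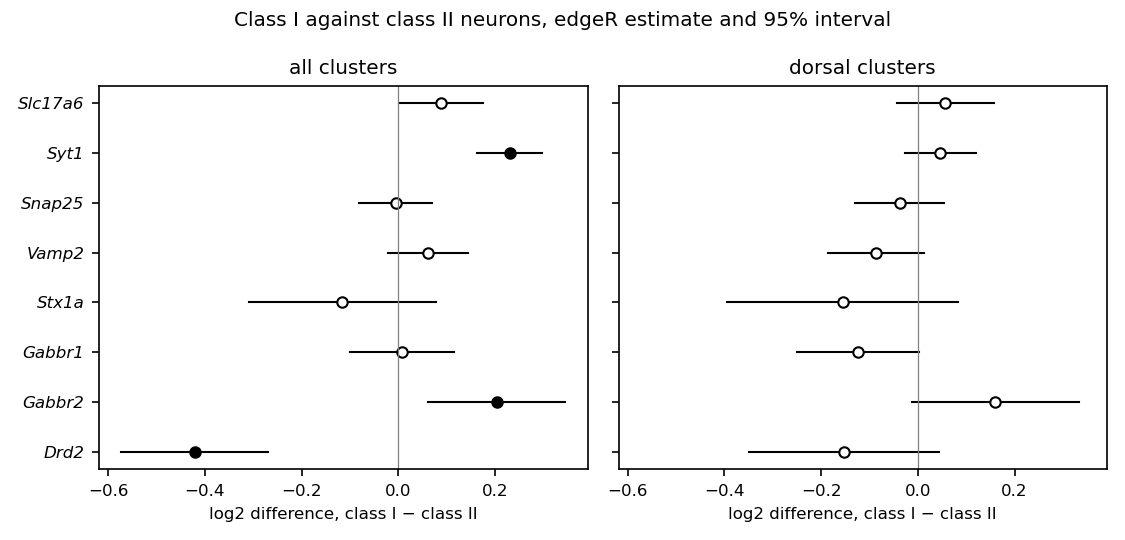
Log2 difference of class I against class II neurons for the 8 members tested, in all neurons with a class (left, titled all clusters) and in dorsal clusters only (right). The left panel includes neurons that were placed in no cluster. Circles are edgeR estimates, filled where the adjusted p is under 0.05, and bars are 95% intervals. Syt1 (0.23), Gabbr2 (0.20) and Drd2 (-0.42) are filled on the left, and none is filled in dorsal clusters.

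The genes most like each member were sought by the Pearson r of log2(UMIs per 10000 + 0.1) among 8975 genes. Over 40 values (10 cell types in 4 mice), Snap25 was most like Wdr54 (r = 0.981) and Rtp2 (0.979), a transporter of olfactory receptors, Syt1 like Tex52 (0.968), Gabbr2 like Faim2 (0.969), Drd2 like Uckl1os (0.969) and Slc17a6 like Kcna5 (0.925), a potassium channel gene. Stx1a was most like Celf3 (0.955), Vamp2 like Rab3gap1 (0.918) and Gabbr1 like Rabgap1l (0.943). Slc17a7 was most like Gadd45gip1 (0.893), but most of its UMIs came from INP (36) and GBC (14). Its r therefore rests on those types and is not set beside the others. Over the 134 population means the values were lower: Tuba4a (0.677) for Snap25, Slc8a1 (0.619), a sodium-calcium exchanger gene, for Slc17a6, and Robo2 (0.497), an axon guidance receptor gene, for Syt1. Each is the highest r of many candidates over means with counting noise, so it is a description only, and none is given for the other members.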

How the data were processed

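UMI counts per gene and barcode were deposited by the authors as 1 matrix per mouse and as 1 merged table, and were used as whole-number counts with no normalization. The authors made them with Cell Ranger 6.0.1 on GRCm38, and removed whole clusters of blood, immune and suffering cells. Of the rest they kept cells with at least 1000 genes and at most 10% mitochondrial UMIs, limits that 0 of the 15859 retained cells broke. The cell type, cluster and receptor identity of each cell are labels deposited by the authors. The merged table and the matrices differed in 0 of 55511 genes. Scrublet (scanpy 1.11.5) called 3, 2, 4 and 36 doublets in the 4 libraries, under 0.5% in 3 of them, so it did not work as a caller and no barcode was removed; leaving out the 4% of barcodes with the highest scores was an alternative.

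Levels were UMIs per 10000 UMIs, as mean ± SD over mice. Genes with at least 20 UMIs over the 4 stages gave the background of stage steps, and genes with at least 20 in the clusters that of the clusters. Tests used edgeR 4.0.16 (quasi-likelihood, TMM, Benjamini-Hochberg over all genes tested, receptor genes left out) on sums per mouse; sums of populations needed 3 neurons (36 were left out) and genes a mean of 1 UMI per sum, and filterByExpr was used for receptor classes. The mouse was the block because all sums of 1 number come from the same animal. With 4 mice, edgeR combined the spread of each gene between sums with a spread shared over genes. For Syt1 the test between classes had 268.3 degrees of freedom from 8 sums, and 49.22 from 8 sums in dorsal clusters. The test among populations had 652.6 for Syt1, from 499 sums. The p-values and intervals of the classes therefore rest mostly on the shared spread, and not on each gene's spread between these mice. DESeq2 1.42.0, limma-voom (limma 3.58.1), other scaling and filters, thinning, and leaving out each mouse were alternatives. Some of the fits were also run on simulated counts, but no outcome is given here and nothing is read from them.

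The members and lists were chosen with earlier results of these data known. Named beside the 9 members were, from each list, at most 4 of the genes called with the largest difference, the genes most like each member (at least 1000 UMIs), and the 3 highest and 3 lowest populations. The step values of list genes with 0 UMIs, Drd1, Drd3, Drd4, Drd5, Slc17a8, Gad2, Gnb1 and Gnb2 were chosen after their values were seen. Some genes of the lists are counted but not reported here by name.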

Additional observations from a re-analysis of the deposited data

Results flagged for a closer look

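In 10 of 116 groups of 4 mice, 1 mouse stood far from the other 3, measured by its gap to the nearest mouse over the range (Dixon's 95% limit); chance gives about 1 in 20. In the stages, mouse 2 was lowest for Syt1 in INP (0.600 UMIs per 10000, the others 0.654 to 0.657), for Stx1a in iOSN1 (1.56, the others 1.65 to 1.66) and for Snap25 in iOSN2 (3.25, the others 3.41 to 3.44). Slc17a7 in iOSN2 was at 0.00518 in mouse 3, from 1 UMI, and at 0 in the others. In the clusters, Gabbr2 was at 1.11 in Cd36+ D. of mouse 2 (the others 0.843 to 0.881) and at 0.687 in Cd55+ V. of mouse 1 (0.750 to 0.757). Drd2 was at 0.326 in Cd55+ D. of mouse 3 (the others 0.695 to 0.727), at 0.928 in the Ventral cluster of mouse 1 (1.12 to 1.14) and at 1.09 in Cd55+ V. of mouse 4 (0.690 to 0.734). Slc17a6 was at 3.54 in Dlg2+ V. of mouse 4 (3.32 to 3.36). The Cd55+ D. cluster, which holds the lowest Drd2 mean, had 27 cells of mouse 3.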

How the results depend on the processing

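Every alternative ran, but not every member had a value in each. Under filterByExpr, Stx1a was left out of both population tests and Gabbr2 of the one within the Ventral cluster. Members called lower from INP to iOSN1 numbered 1 to 2 when a mouse was left out and 2 as a mean over cells, the added gene being Slc17a6, and from iOSN1 to iOSN2 1 to 2, the added gene being Slc17a7 without mouse 2. Genes differing among populations numbered 1678, 1140 to 1219 without 1 mouse, 822 on thinned cells and 989 with exactly 1 receptor. Within the Ventral cluster 943 differed, 560 to 703 without 1 mouse, 542 with 5 neurons in each mouse, 462 on thinned cells, 544 with 1 receptor and 555 with limma-voom; members there numbered 1 to 2 without 1 mouse, and 1 with no replicate block, with 5 neurons in each mouse, on thinned cells, with 1 receptor and with limma-voom. Between classes 2201 genes differed, 1080 with no replicate block, 1237 on thinned cells and 1045 with DESeq2; in dorsal clusters 545, and 208, 278 and 143. The block changed no call of a member except Gabbr2 between classes (adjusted p = 0.189 without it) and Slc17a6 within the Ventral cluster. Small class differences turned sign: Snap25 (-0.073 to 0.021 without 1 mouse, 0.0037 with median-ratio scaling, 0.012 with 1 receptor), Gabbr1 (-0.0062 to 0.028 without 1 mouse, -0.037 with no filter, -0.028 thinned, -0.012 with 1 receptor), and, thinned, Stx1a (0.0011) and Slc17a6 (-0.0042). In dorsal clusters Snap25 ran from -0.11 to 0.016 without 1 mouse, Stx1a was 0.072 and Slc17a6 -0.063 thinned, and Drd2 0.0073 with 1 receptor; none of these was called. The cause was not tested. Depth limits Slc17a7, Stx1a, Gabbr2 and Drd2, which gave few UMIs in small groups.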
